A study of Mus musculus with 16 samples.

Results

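Interferon-stimulated genes are the murine genes that host cells switch on when an interferon binds its receptor. In these xenografts, 39 of them were listed by name, and each was read from the probe set with the highest mean signal among those annotated to that gene alone. Such a probe set was found for 36 of the 39 genes, out of 22179 genes with a single-gene probe set and 40543 probe sets in all. Gbp2 was annotated only together with Gbp2b and Dtx3l only together with Parp9, so neither was measured on its own, and Ifi44 was not analysed here.

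The 16 tumors grew from LA-N-1, a human neuroblastoma cell line with MYCN amplification, injected under the skin of young female athymic Nude-Foxn1 nu/nu mice, which lack a functional thymus. Vehicle was given for 8 of the tumors and cinacalcet, an allosteric activator of the calcium-sensing receptor (CaSR), for the other 8, both by oral gavage. RNA of the whole tumor was hybridized to a mouse array, so the signal comes from stroma, vessels and infiltrating cells of the host, and the extent to which human transcripts bound these probes was not tested. Values are log2 signals as deposited, and the number of arrays limits their precision. Vehicle tumors are V5 to V12 and cinacalcet tumors C4 to C11, with C6 left out as an outlier array, as in the study. C9, C10 and C11 had the longest treatment (prolonged, n = 3), while C4, C5, C7 and C8 had shorter treatment (n = 4). Dosing stopped at a fixed tumor volume, so that the length of treatment and slow growth, or time in the host, cannot be told apart. For the arrays, the study took the tumors that were excised last in either group. Both groups are therefore selected for late excision and are not an unselected sample. Prolonged tumors were compared with all vehicle tumors on the arrays, and not with vehicle tumors matched for time of excision. Each array is 1 tumor, and all mice carried the same cell line.

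By way of background, type I interferons signal through the receptor chains Ifnar1 and Ifnar2, and the kinases Jak1 and Tyk2 then activate a complex with Stat2 and Irf9 that binds the interferon-stimulated response element (ISRE). Interferon gamma acts through Ifngr1 and Ifngr2 and the gamma-activated sequence (GAS) in promoters, and it drives Irf1 and the guanylate-binding proteins (GBP) and immunity-related GTPases (IRG) with particular strength in the mouse. Products of these genes degrade viral RNA, block translation, tag proteins with Isg15 and attack the vacuoles of intracellular pathogens. Macrophages, dendritic cells and endothelial cells respond to both kinds of interferon, and interferon gamma is made mainly by T cells and NK cells.

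The sequence that names this response could be read in the promoters. RefSeq windows (build GRCm38.p6) running from 250 bases before to 50 bases after a gene's start existed for 29 of the 39 genes. Both strands were searched for the ISRE core GAAANNGAAA and for the GAS core TTCNNNGAA, where N is any base. The ISRE core lay in the window of 17 of the 29 genes (58.6%), compared with 3.99% of all 27025 genes with windows of that length. The GAS core lay in 9 of the 29 (31.0%), compared with 9.55% of all genes. All 7 GTPase genes with a window carried an ISRE core and 4 of them carried a GAS core, whereas Irf1 carried a GAS core and no ISRE core. Those 7 include Gbp2, which was not measured on its own, and not Iigp1, which had no window. A match is a string of letters in this window and not a measured binding site. Promoters of 3 genes are shown because they stand for the role groups whose values lay furthest apart, the ISG15 system, the antiviral effectors and the GTPases, with ISRE cores in capitals. They lie at chr4:156200769-156201068 (minus strand) for Isg15, at chr19:34640639-34640938 (plus strand) for Ifit1 and at chr11:58199306-58199605 (plus strand) for Igtp, each written 5′ to 3′ along the gene.
Isg15: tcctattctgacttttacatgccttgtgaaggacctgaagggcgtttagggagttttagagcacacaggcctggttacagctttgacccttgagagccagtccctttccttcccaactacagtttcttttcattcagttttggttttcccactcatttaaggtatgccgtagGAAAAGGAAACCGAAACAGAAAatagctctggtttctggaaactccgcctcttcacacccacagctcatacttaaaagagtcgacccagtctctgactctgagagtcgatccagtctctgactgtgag
Ifit1: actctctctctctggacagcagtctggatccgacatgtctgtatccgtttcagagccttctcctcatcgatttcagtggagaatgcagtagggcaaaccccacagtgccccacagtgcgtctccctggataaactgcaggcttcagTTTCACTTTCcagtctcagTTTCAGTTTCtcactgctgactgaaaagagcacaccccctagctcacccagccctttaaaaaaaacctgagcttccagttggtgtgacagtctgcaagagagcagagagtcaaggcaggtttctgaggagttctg
Igtp: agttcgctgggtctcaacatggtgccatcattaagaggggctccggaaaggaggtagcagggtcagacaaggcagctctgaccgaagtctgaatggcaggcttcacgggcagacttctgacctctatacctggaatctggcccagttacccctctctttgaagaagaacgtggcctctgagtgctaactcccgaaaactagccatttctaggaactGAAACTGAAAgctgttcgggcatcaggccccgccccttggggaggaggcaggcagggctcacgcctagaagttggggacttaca
In Isg15, 3 overlapping cores begin at position -78 from the start. Ifit1 has 2 cores, both on the opposite strand, the more distal at position -104, and Igtp has 1 at position -34. Of these 3 windows, only that of Igtp also holds a GAS core.

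Signal of the 36 genes was low to moderate. Their means over the 15 tumors ran from 1.31 (Mx1) to 5.12 (Gbp7) on the log2 scale, with a median of 3.50. A list of 14 genes chosen because neither stroma nor tumor should transcribe them (the silent genes) had means from 0.63 to 2.41. At or below that upper value lay 7 of the 36 genes, namely Ifit2, Mx1, Mx2, Oasl1, Oas3, Dhx58 and Trim30a, although single tumors were higher, such as C9 (4.07) and C4 (3.46) for Trim30a and C4 for Oas3 (3.18) and Dhx58 (3.15). The upper value is that of Actn3, which itself ran from 1.26 to 3.63. Host cells were present in every tumor, as the mean signal of macrophage markers was between 3.84 and 6.48 and that of fibroblast markers between 3.94 and 7.54. In RNA of whole tumors, fewer cells of a type and less RNA per cell cannot be told apart.

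The score of a tumor, the mean log2 signal over the 36 genes, was 3.24 ± 0.43 (SD, n = 8) with vehicle and 3.56 ± 0.86 (SD, n = 7) with cinacalcet. Among vehicle tumors the lowest score was 2.64 (V11), the median 3.31 and the highest 3.95 (V9). Shorter treated tumors had scores of 4.79 (C4), 2.71 (C5), 2.89 (C7) and 2.84 (C8), and prolonged tumors had 4.57 (C9), 3.22 (C10) and 3.89 (C11). C4 and C9 were the only tumors above every vehicle tumor, C11 lay just under V9, and the other 4 cinacalcet tumors lay inside the vehicle range. The score of prolonged tumors exceeded that of vehicle tumors by 0.66 and that of shorter treated tumors by 0.59, while shorter treated and vehicle tumors differed by 0.07. A single tumor carried much of this: without C9 the prolonged difference was 0.32, without C10 it was 0.998, and without C4 the shorter difference was -0.42. Since the genes were listed with results of these data known, no test was run on the score. In the plot of scores per tumor, C4, C9 and C11 lie above every vehicle tumor in the GTPases, and C4 (3.92) and C9 (3.40) do so in the antiviral effectors, where the vehicle maximum was 3.21 and C11 stood at 3.01.

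**Figure D1:**
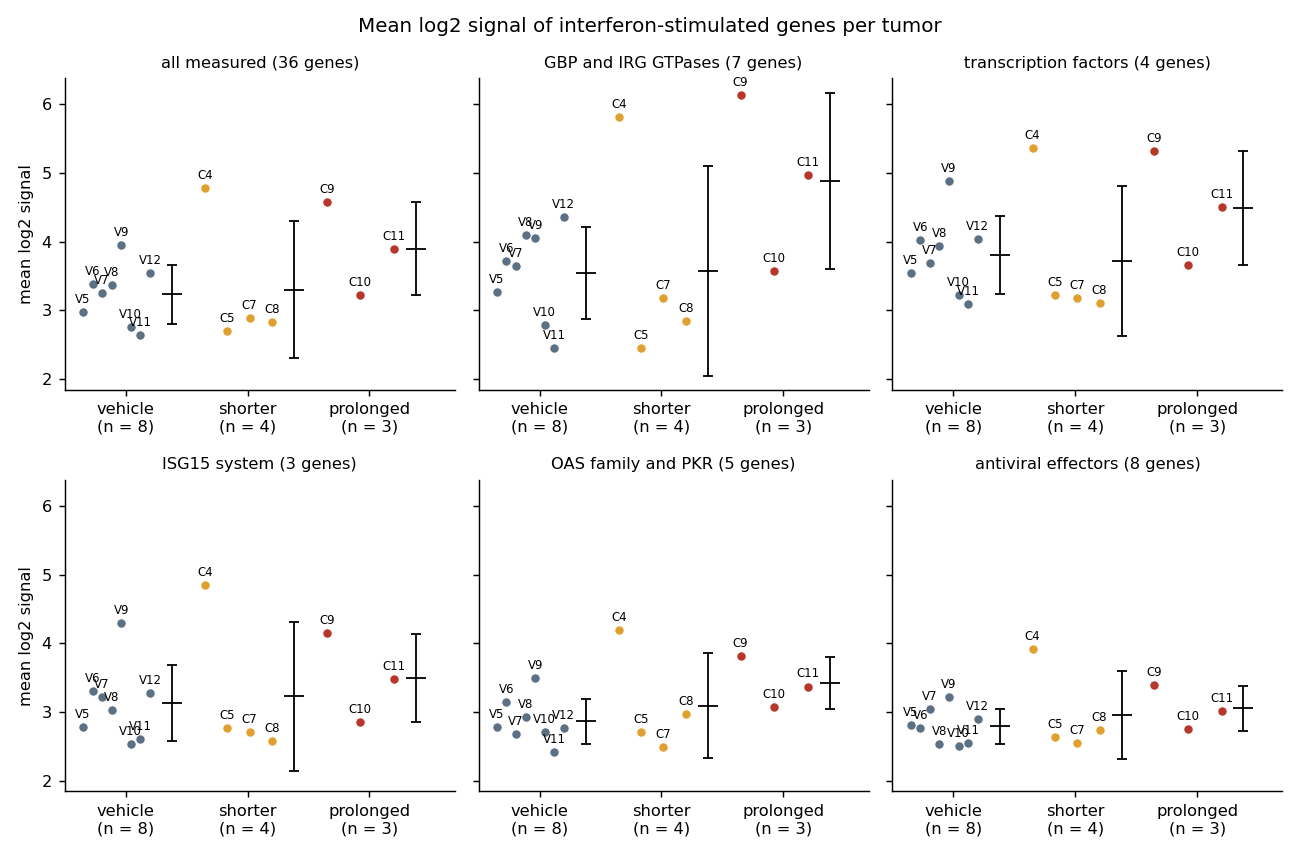
Mean log2 signal (vertical axis) of all 36 measured interferon-stimulated genes and of 5 role groups in vehicle, shorter and prolonged cinacalcet tumors. Each point is 1 tumor, and the bars are the group mean ± SD. C4 (4.79) and C9 (4.57) lie above every vehicle tumor for all genes together, and in the GTPases C9 (6.13), C4 (5.81) and C11 (4.96) do.

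None of the 36 genes passed limma's adjusted threshold of 0.05 in any of the 4 comparisons, and neither did any of the 10135 probe sets tested (0.0% in each). At an unadjusted p under 0.05, 0 of the 36 genes were higher or lower with cinacalcet, compared with 2.32% of all probe sets tested that were higher and 1.99% that were lower. In prolonged tumors 5 of 36 were higher than with vehicle and 0 were lower, where 6.21% of all probe sets were higher and 2.09% lower. Shorter treatment gave 0 in either direction (background 1.18% higher and 1.42% lower). Prolonged against shorter treatment gave 1 higher, Irgm2 (background 4.09% higher and 1.28% lower). Of the 36 genes, 31 passed the filter on mean and variability. Ifit2, Ifit3, Mx1, Mx2 and Oasl1 did not, and their values come from the fit without it.

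In prolonged tumors 34 of 36 log2 fold changes were above 0, with a median of 0.53, whereas 61.7% of all probe sets tested were above 0, with a median of 0.18. Over all 40543 probe sets without the filter the median was -0.06. The 2 genes below 0 were Isg15 (-0.12) and Ifit3 (-0.04), the latter at 0.05 once each array was centred on its median. For all cinacalcet tumors against vehicle, 34 of 36 were above 0 with a median of 0.30 (all probe sets, 60.1% and 0.09), and the exceptions were Xaf1 (-0.07) and Ifit3 (0.00 to 2 decimals, just under 0). Shorter treatment gave 22 of 36 above 0 with a median of 0.11, against 5068 of all 10135 probe sets and a median of 0.00. These comparisons share their vehicle tumors, and the genes varied together, so the counts are not independent of each other.

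**Figure D2:**
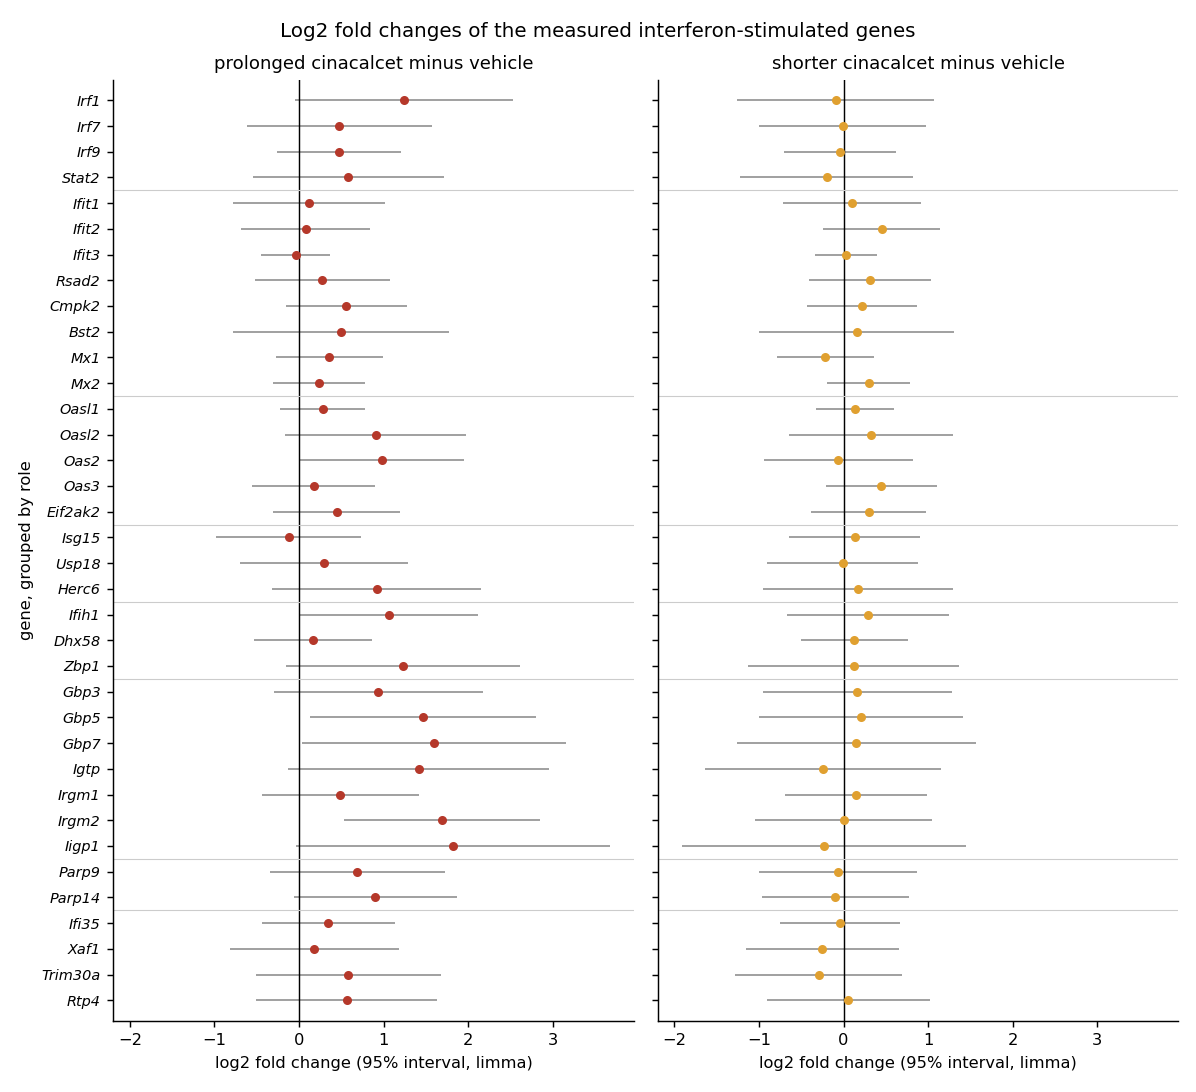
Log2 fold changes (horizontal axis) of the 36 measured genes, in order of role, for prolonged and for shorter cinacalcet treatment against vehicle. Points are limma estimates and lines their 95% intervals. In prolonged tumors the GTPases reach furthest to the right, up to 1.82 for Iigp1, and for shorter treatment the estimates lie between -0.30 and 0.45 with intervals that all span 0.

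The GTPases had the largest differences. GBP proteins are large GTPases and IRG proteins smaller ones that assemble on the vacuoles of intracellular pathogens, and 7 of the 8 listed were measured. Their mean signal was 2.45 to 4.35 in vehicle tumors, with a median of 3.68. It was 6.13 in C9, 3.57 in C10 and 4.96 in C11, and among shorter treated tumors 5.81 in C4, 2.46 in C5, 3.17 in C7 and 2.85 in C8. C10 therefore did not share the high level of C9 and C11, and C4 had it despite its shorter treatment. In prolonged tumors 3 of the 7 were higher at an unadjusted p under 0.05 (Irgm2, Gbp5 and Gbp7), where 6.21% of all probe sets tested were, and the median log2 fold change was 1.46.

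Irgm2 encodes a regulatory IRG protein that holds effector GTPases off host membranes. Its signal in vehicle tumors was lowest at 1.56, with a median of 2.73 and a highest value of 3.17. It was 4.94 in C9, 3.27 in C10 and 4.46 in C11, all above every vehicle tumor, and 4.56, 1.35, 2.42 and 1.84 in C4, C5, C7 and C8. Irgm2 was the only gene of the 36 with every prolonged tumor above every vehicle tumor, a pattern of 1.13% of all probe sets tested, and in none of the 36 did all 7 cinacalcet tumors lie above every vehicle tumor (0.00987% of all). Vehicle tumors averaged 2.54 ± 0.61 (SD, n = 8) and prolonged tumors 4.22 ± 0.86 (SD, n = 3). The estimate on the log2 scale was 1.68 with a standard error of 0.55 (limma, unadjusted p = 0.0068, adjusted p = 0.580). Over all cinacalcet tumors the log2 fold change was 0.72 (95% interval -0.30 to 1.74).

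Gbp5 encodes a guanylate-binding protein that in mice also promotes inflammasome assembly. In vehicle tumors its signal had a lowest value of 2.38, a median of 2.76 and a highest of 3.82. C9 reached 6.39 and C11 4.38, but C10 stood at 2.48, near the bottom of the vehicle range. Among shorter treated tumors it was 4.98 in C4, 2.12 in C5, 2.80 in C7 and 2.73 in C8. The prolonged log2 fold change was 1.46 (95% interval 0.13 to 2.80, adjusted p = 0.580), and an exact permutation test of the tumors gave p = 0.109 (two-sided, 165 arrangements, smallest possible p 0.0121, unadjusted for the 30 such tests run). Without C9 it was 0.48, the lowest value with any 1 tumor left out, and without C10 it was 2.43.

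Gbp7, another guanylate-binding protein, had the highest mean of the 36 genes. Vehicle tumors ran from 3.09 to 6.02 with a median of 4.83, and prolonged tumors stood at 7.73 (C9), 5.06 (C10) and 6.28 (C11). C4 reached 7.34, with 3.35, 4.94 and 4.03 in C5, C7 and C8. Its prolonged log2 fold change was 1.59 (95% interval 0.03 to 3.16, exact permutation p = 0.0970).

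Iigp1, an effector IRG protein, spanned the widest range of all, 5.15 log2 units over the 15 tumors. With vehicle its signal was 2.47 at the lowest, 5.03 at the median and 5.87 at the highest. It was 7.46, 4.99 and 6.94 in C9, C10 and C11 and 7.62, 3.26, 3.88 and 2.89 in C4, C5, C7 and C8, so that C10 lay at the vehicle median and 3 shorter treated tumors lay in the lower part of the vehicle range. The prolonged log2 fold change of 1.82 (95% interval -0.04 to 3.68, adjusted p = 0.580) had an exact permutation p of 0.0606. Igtp, a regulatory IRG protein whose promoter is printed above, ran from 2.05 to 4.16 with vehicle around a median of 3.64. C9, C10 and C11 had 6.21, 3.13 and 5.04, and C4, C5, C7 and C8 had 5.98, 1.87, 2.28 and 2.41. Its prolonged log2 fold change was 1.41 (95% interval -0.13 to 2.96, exact permutation p = 0.0848). Gbp3 and Irgm1, the remaining 2, had prolonged log2 fold changes of 0.94 and 0.48.

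**Figure D3:**
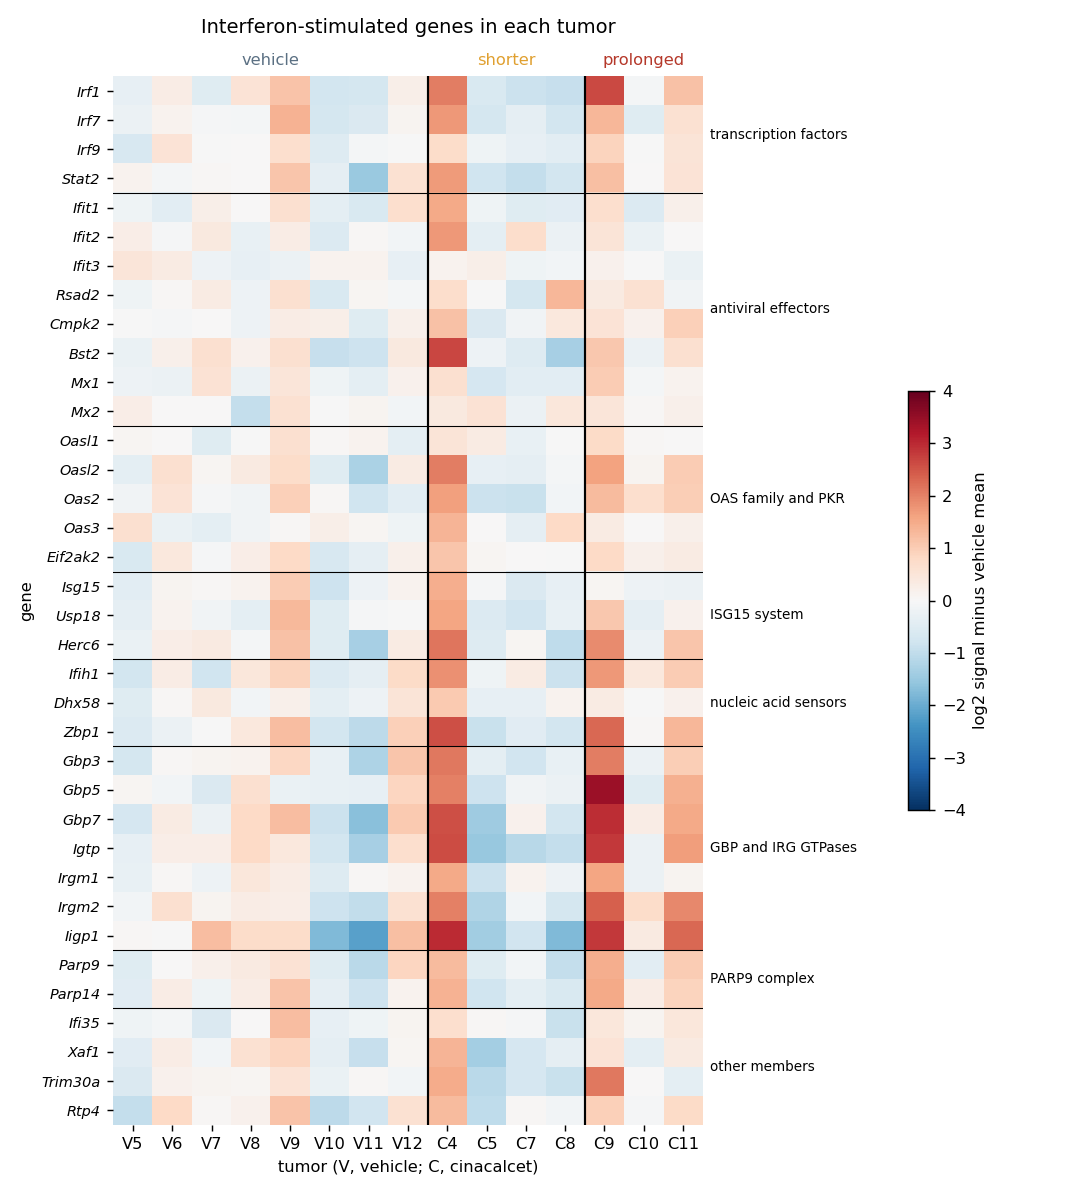
Each row is 1 of the 36 measured genes, grouped by role, and each column 1 tumor; colors give the log2 signal minus the gene's vehicle mean. C4 and C9 are red in most rows, and C11 is reddest in the GTPases. V9 is red among the transcription factors and the ISG15 system but stays pale for Gbp5, Igtp and Irgm2.

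The ISG15 system had smaller values, although the gap between the 2 sets of genes was not tested. Isg15 is a ubiquitin-like protein attached to newly made proteins, Usp18 removes it and also damps the type I interferon receptor, and Herc6 is its ligase in mice. Isg15 had a lowest vehicle value of 1.61, a median of 2.53 and a highest of 3.45. Prolonged tumors had 2.53 in C9, 2.25 in C10 and 2.20 in C11, all inside that range, and C4 alone stood above it at 3.90, with C5 at 2.41, C7 at 1.88 and C8 at 2.12. The log2 fold change was -0.12 for prolonged treatment (95% interval -0.98 to 0.74) and 0.02 for all cinacalcet tumors (-0.62 to 0.67). The exact permutation p was 0.715 and 0.945, respectively. Isg15 in C9 lay at the vehicle median while Igtp in the same tumor lay 2.05 above the highest vehicle tumor. The signal of Isg15 was low, however. Its vehicle median of 2.53 lay near 2.41, the highest mean of the genes that should not be transcribed, so its differences may be compressed.

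Usp18 ran from 2.71 to 4.49 in vehicle tumors, with a median of 3.09, and its highest vehicle value (V9) exceeded all 3 prolonged tumors, at 4.27 in C9, 2.82 in C10 and 3.35 in C11. In shorter treated tumors it was 4.75 in C4 and 2.64, 2.42 and 2.89 in C5, C7 and C8. Its prolonged log2 fold change was 0.29 (95% interval -0.70 to 1.28), and that of Herc6 was 0.92 (-0.32 to 2.16). The GTPase score minus the ISG15 system score of the same tumor was 1.98 in C9 and 1.49 in C11, above the vehicle range of -0.24 (V9) to 1.07. It was 0.71 in C10 and 0.96 in C4, inside that range. Isg15, with its low signal, enters the ISG15 system score.

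Among the transcription factors, Irf1 had the largest log2 fold change in prolonged tumors, although Irf7 had the higher signal. Irf1, which interferon gamma induces and which binds ISRE-like sites, had a lowest vehicle value of 2.67, a median of 3.38 and a highest of 4.56. It was 6.05 in C9, 3.33 in C10 and 4.58 in C11, and 5.45, 2.79, 2.55 and 2.50 in C4, C5, C7 and C8. Its prolonged log2 fold change was 1.24 (95% interval -0.05 to 2.52, adjusted p = 0.580, exact permutation p = 0.0970). Irf7, which amplifies type I interferon, ran from 4.22 to 6.32 with vehicle around a median of 4.86. C9, C10 and C11 had 6.25, 4.43 and 5.53, none above V9, and C4, C5, C7 and C8 had 6.68, 4.21, 4.58 and 4.20. The prolonged log2 fold change of Irf7 was 0.47 (95% interval -0.62 to 1.57). Stat2, a subunit of the ISRE-binding complex, ran from 2.01 to 4.60 with vehicle, with a median of 3.50, and stood at 4.67, 3.49 and 4.02 in C9, C10 and C11 and at 5.18, 2.67, 2.52 and 2.75 in C4, C5, C7 and C8. Its prolonged log2 fold change was 0.58 and that of Irf9, another subunit, was 0.47.

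Antiviral effectors showed the smallest differences, with a median prolonged log2 fold change of 0.25 over 8 genes, none of them past an unadjusted p of 0.05. Only 4 of the 8 passed the filter. The means of Ifit2, Mx1 and Mx2 lay at or below 2.41, the highest of the genes that should not be transcribed, where differences are compressed. Ifit1, which binds viral RNA, ran from 3.44 to 4.72 with vehicle around a median of 3.95. C9, C10 and C11 had 4.72, 3.50 and 4.25, and C4 alone exceeded the vehicle range at 5.56, with 3.85, 3.56 and 3.58 in C5, C7 and C8. Its log2 fold change was 0.12 for prolonged treatment (95% interval -0.78 to 1.02). Ifit3, a partner of Ifit1, was almost flat. It had a mean of 4.63 over 15 tumors and a range of 0.81, from a lowest vehicle value of 4.30 through a median of 4.59 to a highest of 5.11 (V5). In C9, C10 and C11 it was 4.78, 4.61 and 4.37, and in C4, C5, C7 and C8 4.77, 4.85, 4.46 and 4.52. The signal of the Ifit3 probe set therefore did not follow that of Ifit1, although the window of Ifit3 holds 2 ISRE cores. Whether this probe set reports Ifit3 faithfully was not tested. Bst2 (tetherin, which holds budding virus at the cell surface) reached 5.65 in C4 and 4.07 in C9 against a vehicle maximum of 3.62, and Rsad2 (viperin) was highest in C8 at 4.86.

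Of the OAS family, enzymes that make the messenger activating RNase L and their inactive relatives, and PKR, the kinase that halts translation, Oas2 was higher in prolonged tumors at an unadjusted p of 0.0499 (log2 fold change 0.98, adjusted p = 0.580). Oasl2 had a lowest vehicle value of 2.63, a median of 4.10 and a highest of 4.63. It stood at 5.49 in C9, 4.01 in C10 and 4.90 in C11, and at 5.95, 3.58, 3.55 and 3.81 in C4, C5, C7 and C8. The log2 fold change of Oasl2 was 0.90 for prolonged treatment (95% interval -0.17 to 1.98, exact permutation p = 0.0727) and 0.57 for all cinacalcet tumors (exact permutation p = 0.207). Eif2ak2, which encodes PKR, had a prolonged log2 fold change of 0.44.

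Of the sensors of nucleic acid, Ifih1 (MDA5) is a helicase that detects long double-stranded RNA. Vehicle tumors ran from 3.01 to 4.68 with a median of 3.77. Prolonged tumors stood at 5.54 (C9), 4.23 (C10) and 4.80 (C11), and C4, C5, C7 and C8 at 5.63, 3.64, 4.14 and 2.94. Ifih1 had the smallest p of the 36 genes for all cinacalcet tumors against vehicle (log2 fold change 0.62, 95% interval -0.20 to 1.44, unadjusted p = 0.132, exact permutation p = 0.175). For prolonged treatment it was 1.06 (95% interval 0.00 to 2.12, adjusted p = 0.580, exact permutation p = 0.0606). Zbp1, a sensor of Z-form nucleic acid that can trigger cell death, had a prolonged log2 fold change of 1.23, and Dhx58, of low mean signal, one of 0.17. Parp14, an ADP-ribosyltransferase, ran from 3.62 to 5.58 with vehicle around 4.42 and stood at 5.97, 4.74 and 5.32 in C9, C10 and C11 and at 5.84, 3.66, 4.06 and 3.84 in C4, C5, C7 and C8. Its prolonged log2 fold change was 0.90 (exact permutation p = 0.0727), and that of its partner Parp9 was 0.69. Ifi35, Xaf1, Trim30a and Rtp4, the 4 genes outside these groups, had values between 0.18 and 0.58.

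The high values came from few tumors. Of the 36 genes, 20 were highest in C4, 12 in C9, 2 in V9 (Ifi35 and Mx2), 1 in V5 (Ifit3) and 1 in C8 (Rsad2). C4 lay above every vehicle tumor for 32 genes, compared with 14.4% of all probe sets tested. C9 did so for 24 genes (22.7% of all) and C11 for 13 (9.27% of all). C8 did so for 3 (7.89% of all), C10 for 1 (15.6% of all), C7 for 1 (11.3% of all) and C5 for 0 (6.97% of all). Among vehicle tumors, V9 was the highest for 23 of the 36 genes. The share of all probe sets that were highest in a given tumor was not computed. The count of 5 in prolonged tumors depended on single tumors. It was 0 without C9, 1 without C11, 13 without C10 and 11 without C4. Over all 10135 probe sets, 629 were higher at that level in the full fit, compared with 390, 751, 588 and 674 without C9, C11, C10 and C4. The count was 8 without V9 (877 of all), 3 without C7 (584 of all), and 2 without V5, V7, V10 or V11 (474 to 492 of all). Against shorter treatment the count of 1 (415 of all) became 18 without C4 (797 of all) and 8 without C10 (495 of all). It was 0 without C5 (239 of all) or C9 (302 of all), and 2 without V10, V11 or C11 (381, 426 and 519 of all). For all cinacalcet tumors against vehicle it was 2 without C5 and 1 without C8 (408 and 346 of all higher). For shorter treatment it was 2 without C4 and 1 without C5 or C7, where 140, 154 and 110 of all were higher and 188, 135 and 122 lower.

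The genes varied together. Over the 15 tumors, the median correlation between pairs of the 36 genes was 0.731, and 95.4% of the 630 pairs were above 0, whereas the median over all pairs of probe sets tested was 0.026. Within the 8 vehicle tumors alone it was 0.571 (all probe sets, 0.033). Over the 15 tumors the median was 0.879 among the transcription factors and 0.871 among the GTPases but 0.301 among the antiviral effectors. Zbp1 followed the mean of the other measured genes most closely (r = 0.984), followed by Irf1 and Parp14 (0.960 each), and Ifit3 (-0.145), Mx2 (0.217) and Rsad2 (0.303) followed it least. Pairs of genes share the same tumors and the same content of host cells, so these correlations describe the arrays and carry no test.

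Upstream genes of the pathway gave a mixed account. Of 16 listed interferon ligands, 15 were measured and their mean signal was 1.70 to 2.24 over the 15 tumors, a mean close to background. Single ligands were higher, and 5 of the 15 passed the filter. Ifnl2 lay between 4.63 (C4) and 5.85 (V10), and Ifna1 between 2.99 (V9) and 4.67 (V5). Ifnb1 lay between 0.54 and 1.31 in every tumor, and Ifng had its highest value, 2.02, in C9, next to 1.67 in V7 and 1.41 in C4. Background shares at an unadjusted p under 0.05 in prolonged tumors were again 6.21% higher and 2.09% lower. Among the 15 ligands, 1 was lower at that level (Ifna14, log2 fold change -0.47) and 0 were higher. Receptors other than Ifnlr1 had means of 4.76 or more. Of 6 measured, 2 were higher in prolonged tumors at an unadjusted p under 0.05, Ifngr2 (log2 fold change 0.93) and Ifnar1 (1.17), with an adjusted p of 0.580 for both. Of 10 measured JAK-STAT genes, 0 were past that level, the smallest p belonging to Stat3 (0.70). Among 14 genes of sensing upstream of interferon 2 were, Ikbke (1.17), a kinase that activates interferon regulatory factors, and Samhd1 (1.67), which depletes nucleotides.

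Targets of interferon gamma beyond the listed genes were high in the same tumors as the GTPases. In prolonged tumors 6 of 14 were higher at an unadjusted p under 0.05 and 0 were lower, where 6.21% and 2.09% of all probe sets were. All 14 log2 fold changes were above 0 (61.7% of all probe sets) with a median of 1.06, and none passed after adjustment. Cxcl11, a chemokine that recruits T cells through CXCR3, was 4.55 in C9, 1.19 in C10 and 4.32 in C11, compared with a vehicle range of 1.15 to 2.21 (log2 fold change 1.68, adjusted p = 0.580). In C4 it was 2.62. Nos2, the inducible nitric oxide synthase of macrophages, was 6.15 in C9 but 2.21 in C11 and 1.51 in C10, so that its log2 fold change of 1.45 rested on C9. Tap1, a peptide transporter of antigen presentation, had a log2 fold change of 1.25. Cxcl9, named here after its values were seen, had the largest difference of these targets, with a signal of 10.8 in C9, 10.2 in C4 and 9.39 in C11 against a vehicle maximum of 8.12. Prolonged and vehicle tumors differed by 2.05 for this gene (95% interval -0.37 to 4.47).

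Of the immune cell markers, those of T cells were highest in C9, C4 and C11. T cell markers (7 measured of 8 listed) averaged 4.01 in C9, 3.43 in C4 and 3.37 in C11, and between 2.03 and 2.75 in the other 12 tumors, V12 being the highest of these. Above every vehicle tumor lay 6 of the 7 in C9, 5 in C11, 4 in C4 and 0 in the other cinacalcet tumors, beside 22.7%, 9.27% and 14.4% of all probe sets tested in C9, C11 and C4. Cd3g, a chain of the T cell receptor complex, was 6.03 in C9, 5.73 in C4 and 4.97 in C11 against a vehicle maximum of 4.02. At or below the highest silent gene lay 3 of the 7 markers. NK cell markers averaged 2.84 in both C4 and C9 and at most 2.11 elsewhere, C11 being at 1.99 inside the vehicle range, with 6 of 8 markers at or below the highest silent gene. Macrophage markers were highest in C9 (6.48) and C4 (6.44), but V12 (6.19) and V6 (6.13) followed closely. Neutrophil markers averaged 3.08 in C9 but 1.74 in C4 and 1.52 in C11, and at most 2.26 elsewhere, with 6 of 8 at or below the highest silent gene. Dendritic cell markers averaged 3.44 in C9, 3.37 in C11 and 3.12 in C4, against 2.95 to 3.37 with vehicle, and 3 of 6 lay at or below that gene. V9 stood out by B cell markers, at 4.60 against 1.86 to 3.20 elsewhere, and C4 (1.96), C8 (1.945) and C10 (1.86) lay below every vehicle tumor. Plasmacytoid dendritic cell markers averaged 1.93 in C4, 1.92 in C9 and 1.90 in C11, inside the vehicle range of 1.81 to 2.69, and 5 of 7 lay at or below the highest silent gene. The part of any of these cells in the interferon-stimulated signal was not tested. With the mean of macrophage, endothelial, fibroblast and mural cell markers as a covariate, the count in prolonged tumors was 1 in place of 5. Over all 10135 probe sets, 488 were higher at an unadjusted p under 0.05 with the covariate and 629 without it.

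**Figure D4:**
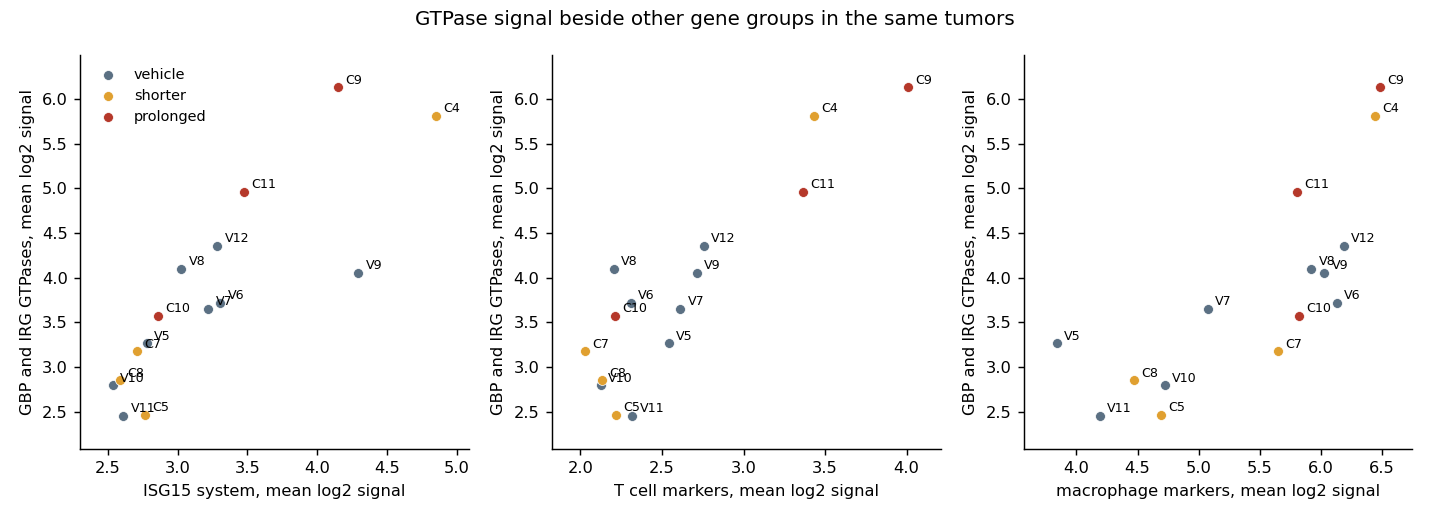
GTPase score (vertical axis, mean log2 signal of 7 genes) against the mean log2 signal of the ISG15 system, of T cell markers and of macrophage markers, with 1 point per tumor. V9 has a high ISG15 system score (4.29) beside a GTPase score of 4.05 inside the vehicle range, and C4, C9 and C11 are the 3 highest tumors for both GTPases and T cell markers.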

How the data were processed

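RNA of 16 xenografts was hybridized to mouse gene arrays. The deposited values are log2 signals that the authors computed by RMA (background correction, quantile normalization and summary per probe set), and the submitters' processing notes name R 3.2 and limma 3.24. RMA pulls dim probe sets towards a common floor, so differences of low genes are compressed. Here, probe sets were named from GEO's platform annotation, and 23448 of 40543 named 1 gene, 1619 several and 15476 none. Array medians ran from 1.58 to 1.85, and arrays correlated at 0.856 to 0.954. No array depth exists, so that the number of arrays limits precision.

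Groups came from the labels, and treatment length came from the study's text. Following its methods, C6 was left out, the lower 50% of probe sets by mean signal and then the lower 50% of the rest by SD were removed (10135 tested), and limma 3.58.1 in R 4.3.3 was fitted without a block, with Benjamini-Hochberg adjustment over all probe sets tested and a threshold of 0.05. Prolonged, shorter and vehicle tumors shared 1 fit. Single genes were also tested by exact permutation of tumors (scipy 1.17.1), two-sided and unadjusted. The fit was also run on simulated arrays with independent noise, comparing all cinacalcet tumors with vehicle. The changes put in were larger than any that a measured gene of the list had against vehicle. That run therefore does not show how the fit handles smaller changes, genes that vary together or the prolonged group. The members, role groups, pathway and marker lists were chosen with earlier results of these data known. Values per tumor were given for a fixed anchor of each role, for the genes of smallest p in the comparisons of all and of prolonged cinacalcet tumors with vehicle, and for those of widest range. From other lists, up to 3 genes of smallest p were named. Alternatives changed the filter, C6, a block by tumor number, the variance model, array weights, normalization, centring, a host marker covariate and each tumor in turn.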

Additional observations from a re-analysis of the deposited data

Results flagged for a closer look

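A single sample lay far from the rest of its group, by Dixon's ratio at the 95% level, in 15 of the 72 groups of tumors and measures examined, where chance gives about 5%. The measures overlap and come from the same tumors, so these are not 15 separate events.

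C4 accounted for 12 of them. Against the other shorter treated tumors it stood apart in the score of all measured genes (4.79, next 2.89), of the transcription factors (5.36), of the antiviral effectors (3.92), of the ISG15 system (4.85) and of the nucleic acid sensors (5.02). It also did so for the single genes Ifit1 (5.56), Irf7 (6.67), Irf1 (5.45), Stat2 (5.18), Oasl2 (5.95) and Igtp (5.98). For Isg15, C4 (3.90) stood apart from all other cinacalcet tumors, the next being 2.53. In the same tumor T cell markers averaged 3.43 and NK cell markers 2.84, and their part in these values was not tested.

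V9 stood apart from the other vehicle tumors in the score of the ISG15 system (4.29, next 3.31), in Irf7 (6.32) and in Usp18 (4.49), but not in the score of the GTPases. B cell markers averaged 4.60 in V9, and their part was not tested.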

How the results depend on the processing

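Under all 24 alternatives, 0 of the 36 genes passed the adjusted threshold in any comparison, and adjusted p for Irgm2 in prolonged tumors ran from 0.289 to 0.945. At an unadjusted p under 0.05, the count of 5 in prolonged tumors became 3 without the filter or with the signal filter only, 2 after a further quantile normalization and 1 with host markers as covariate. Over all probe sets tested, 1482 of 40543 were higher without the filter and 1031 of 20271 with the signal filter only. Of 10135, 443 were higher after quantile normalization and 488 with the covariate, compared with 629 in the main fit. Omitting single tumors took the count of 5 from 0 without C9 (390 of all higher) to 13 without C10 (588 of all). The score difference between prolonged and vehicle tumors stayed above 0, at 0.301 after subtraction of host markers. With single tumors left out, the difference between shorter treated and vehicle tumors ran from -0.425 without C4 to 0.268 without C5, and that between prolonged and shorter treated tumors from 0.254 without C9 to 1.086 without C4.

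Same-numbered vehicle and cinacalcet tumors correlated between -0.237 and 0.371. So few and mixed correlations cannot decide whether these tumors share more than a number. With tumor number as a block the score difference was -0.389 for shorter treatment and 1.169 for prolonged against shorter treatment. The counts at an unadjusted p under 0.05 were 11 for prolonged and 3 for shorter treatment against vehicle and 16 between them. Calls over all 10135 probe sets rose too. With the block, 865 were higher and 259 lower for prolonged treatment, 227 and 224 for shorter treatment, and 535 and 218 between them. Without it these were 629 and 212, 120 and 144, and 415 and 130. The block also turned the cinacalcet difference of Isg15 (-0.173), Ifit1 (-0.082), Irf7 (-0.018), Stat2 (-0.042) and Usp18 (-0.102).

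These genes had differences near 0 that changed sign elsewhere too. With C6 included, cinacalcet against vehicle gave -0.04 for Isg15 and -0.057 for Ifit1, and with the host covariate -0.076 for Isg15 and 0.052 for Ifit3. Ifit3 gave 0.026 with array weights and 0.052 with centred arrays. For prolonged treatment Ifit1 gave -0.062 after quantile normalization, and Ifit3 gave 0.052 with centred arrays and 0.041 with the host covariate. Leaving out 1 tumor at a time, cinacalcet against vehicle ran from -0.216 to 0.166 for Isg15, from -0.127 to 0.215 for Ifit1, from -0.05 to 0.067 for Ifit3, from -0.061 to 0.396 for Irf7, from -0.126 to 0.317 for Stat2 and from -0.121 to 0.306 for Usp18. For prolonged treatment it ran from -0.241 to 0.022 for Isg15, from -0.161 to 0.448 for Ifit1, from -0.14 to 0.068 for Ifit3 and from -0.103 to 0.623 for Usp18. The cause was not tested. The other 9 named genes kept their direction under all 24 alternatives in both comparisons. Genes of low mean signal, such as Mx1 and Oas3, leave little room for a difference to show.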
